A study of Homo sapiens with 15 samples.

Results

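SARB, a hybrid molecule obtained by joining thymoquinone (TQ) and 5-fluorouracil (5-FU) through esterification, was given at 35 µM for 24 h to HCT116 cells, a human colorectal cancer line that carries wild-type p53, and transcript counts were compared with untreated cells. The comparison used every endogenous gene of a NanoString cancer pathway panel (730 genes) in 6 of the 15 samples of the series, 3 of SARB and 3 of control. TQ is a quinone from black seed, and 5-FU is a pyrimidine analog that disturbs thymidylate synthesis and RNA metabolism. The other samples were 3 each of TQ at 40 µM, 5-FU at 15 µM and Combi, a mixture of 35 µM TQ with 35 µM 5-FU, so that Combi matched SARB in dose and time and the single drugs did not match it in dose. All groups were the same cell line, harvested 24 h after treatment. The labels describe the control as left untreated and name no vehicle, and they do not say whether the 3 samples of a group came from separate cultures, so the p-values measure the spread between these samples, which may be technical.

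Counts are given as scaled counts, that is, raw counts divided by one factor per sample that made the geometric mean of 40 housekeeping genes equal. Each log2 fold change compares SARB with control, and calls rest on edgeR's quasi-likelihood test, with a Benjamini-Hochberg adjusted p not above 0.05 together with a change of 1.5-fold or more. Every adjusted p below comes from that test over the 730 genes. A gene was above background in a sample when its raw count exceeded the mean plus 2 SD of the 8 negative control probes. The endogenous genes summed to 220040 to 258006 raw counts in control and 226357 to 568343 in SARB, and 447 to 510 genes were above background in a control sample against 470 to 572 in a SARB sample. On the scaled counts, the negative probes averaged 11.7 to 20.6 in control and 3.20 to 16.4 in SARB, a log2 ratio of -0.93, which bears on every gene near background. All SARB samples and control 1 ran on one cartridge of the instrument, and controls 2 and 3 ran on another, so cartridge and treatment are partly confounded. Of 8 epithelial markers looked for, 7 were on the panel and 6 of them were above background in all 6 samples, with a summed level of 3735 to 5037 scaled counts in control and 5366 to 6133 in SARB. The exception, LAMA3, was above background in 1 control sample and all SARB samples. The 8 fibroblast markers summed to 104 to 183 in control and 69.4 to 138 in SARB, with 5 of 8 above background in no sample, and the 11 lymphoid and myeloid markers to 323 to 390 in control and 235 to 384 in SARB, of which CD40 was the most counted. Of the epithelial markers, LAMB3, LAMA3 and ITGA6 are among the genes called higher below.

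The p53 protein is a transcription factor that is stabilized by DNA damage and nucleolar stress, and it raises the transcription of cell cycle inhibitors, of its own ubiquitin ligase MDM2 and of death receptors. Cells arrested by its target CDKN1A stop making the mRNAs of replication-dependent histones and of mitotic cyclins, whose synthesis is tied to S phase and to the G2/M transition. In HCT116 cells this response is well known after 5-FU. In such bulk RNA, fewer cells of a type or at a stage of the cycle and less RNA per cell cannot be told apart.

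The promoters of 4 genes are printed because the first 3 carried the largest falls among well-counted genes and the fourth encodes another histone. They are the 110 bases before the annotated start of transcription, 5′ to 3′ on the gene's strand, from RefSeq on GRCh38.p14. Capitals mark the letters CCAAT, their reverse complement ATTGG, and TATAAA read on the gene's strand. No marked stretches overlap.
HIST1H3H, named H3C10 by RefSeq, chr6:27809941-27810050, plus strand: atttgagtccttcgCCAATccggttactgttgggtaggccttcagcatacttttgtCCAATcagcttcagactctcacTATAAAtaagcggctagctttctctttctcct
HIST1H3B, named H3C2 by RefSeq, chr6:26032100-26032209, minus strand: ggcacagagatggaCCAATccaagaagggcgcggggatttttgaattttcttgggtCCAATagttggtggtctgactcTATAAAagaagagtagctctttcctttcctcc
CCNB1, chr5:69167040-69167149, plus strand: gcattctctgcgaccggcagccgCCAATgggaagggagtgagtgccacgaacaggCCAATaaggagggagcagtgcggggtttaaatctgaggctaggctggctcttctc
H2AFX, named H2AX by RefSeq, chr11:119095466-119095575, minus strand: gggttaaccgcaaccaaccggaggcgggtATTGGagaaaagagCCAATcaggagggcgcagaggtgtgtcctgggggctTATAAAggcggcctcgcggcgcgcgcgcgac
In both H3 promoters the CCAAT letters began 96 and 54 bases before the start and TATAAA 32 bases before it. CCNB1 had CCAAT at 87 and 55 bases and no TATAAA in this window, and H2AFX had ATTGG at 81, CCAAT at 67 and TATAAA at 31 bases before the start. Of 730 panel genes, 729 matched a RefSeq gene and 547 had a promoter in the table. At least 2 matches to CCAAT or ATTGG were present in 4.17% of all 27305 promoters in these 110 bases, in 5.3% of the 547, in 10.1% of the 109 that belonged to genes called lower, in 9.09% of the 44 of genes called higher and in 3.55% of the 394 of genes not called. TATAAA was present in 4.04% of all promoters, in 6.22% of those of the panel, in 5.84% of those of genes not called, in 9.17% of those of genes called lower and in 2.27% of those called higher. These shares are descriptions of the letters in a fixed window. The 4 printed promoters belong to genes called lower and are counted in that group. They are among its 11 promoters with at least 2 matches and, CCNB1 apart, among its 10 with TATAAA.

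Of 730 genes, 63 (8.63%) were called higher in SARB than in control, 146 (20%) were called lower and 521 were not called. The largest increases were in laminin chains, p53 targets, a decoy death receptor and the ERK phosphatase DUSP5, and the largest falls of well-counted genes were in histone H3, cyclin B1 and the ligand KITLG. Log2 fold changes of the called genes ran from 0.60 to 2.86 and from -3.59 to -0.60, with 29 genes at least 2-fold higher and 83 at least 2-fold lower. All SARB samples lay above all control samples in 96 genes (13.2%) and below them in 211 (28.9%). Of the called genes, 62 of the 63 higher and 123 of the 146 lower had groups that did not overlap, RIN1 being the higher gene with overlap, a name chosen after its values were seen.

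The balance of calls depended on the scaling. Of the 40 housekeeping genes behind it, 4 differed at least 1.5-fold between SARB and control after scaling. Their log2 differences ran from -0.73 to 0.76 over all 40, with a median of 0.03. The factors ran from 0.578 to 0.661 in control and from 0.742 to 2.03 in SARB. Over the 730 genes, the median was -0.41 on the log2 scale relative to the housekeeping genes, and -0.07 under TMM, a normalization that assumes most genes do not change and that called 120 genes higher (16.4%) and 68 lower (9.32%). All 63 genes called higher were also higher under TMM, and 68 of the 146 lower genes remained lower. Fitted with cartridge as a block, where control 1 alone shares a cartridge with SARB, 50 genes were higher (6.85%) and 56 lower (7.67%). Against control 1 alone, 51 of 63 genes called higher and 103 of 146 called lower differed by at least 1.5-fold in the same direction. Control 1 was itself 1 of the 3 controls behind those calls, so part of that agreement is built in. Under 16 alternative settings, 37 higher and 25 lower genes were called in every one. Of the 146 lower genes, 43 were not above background in all 3 controls and 22 were above it in none of the 6 samples, while 62 of the 63 higher genes were above background in every SARB sample. Of the higher genes named in the text, the block ended the calls of BMP7, CAPN2, CCND1, FGF18, KAT2B, NF2, PDGFA, PIK3R2, PPP2CB, RASAL1, RIN1, SOCS3, STK11, TNFAIP3 and XRCC4, and TMM ended no call of a higher gene by edgeR. Of the lower genes named and above background in all 6 samples, the block ended those of ATR, E2F5, FANCF, FGF11, FOS, HDAC4, HES1, HSP90B1, KLF4, MAPK3, MAPK9, MCM4, PHF6, RNF43 and SKP2. TMM ended those of ATR, CDKN1B, CHEK1, DDIT3, DUSP6, E2F5, FGF11, FOS, H3F3A, HES1, HSP90B1, ITGB8, KLF4, MAPK9, MCM4, MCM7, NTHL1, PTTG2, RAD21, SKP2, SMC1A, STMN1, UBE2T and VEGFA. The block also ended the call of every lower gene named in the text that was not above background in all 6 samples, namely CACNG6, CASP12, CCNB3, COL5A1, COL6A6, DKK2, DKK4, FGF9, GADD45G, MAP2K6, PTPN5, RELN, SMC1B and TLR2. For the low-count genes the value -0.93 of the negative probes stands beside their falls, and its part in them was not tested.

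The shares of a list called higher or lower are given below in that order, to be read against 8.63% and 20% of all 730 genes, and list medians against -0.41. A share near those of all genes is not a result about the list.

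Most members of the list of p53-induced genes rose. The list was written with earlier results of these data known, so its share describes these members and is not a test. Of 18 such genes on the panel, edgeR called 15 higher and 0 lower (0 lower by DESeq2 and 1 at an unadjusted p under 0.05), against 8.63% of all genes called higher, and the median log2 fold change was 1.36 against -0.41 for all genes. Of the 15, 14 were also called under TMM and with the cartridge block, the exception being CCND1. CDKN1A, the inhibitor of cyclin-dependent kinases that holds cells in G1 and G2, counted 768, 896 and 1346 in the controls and 4199.6, 6021 and 5560.0 in the SARB samples. The lowest SARB sample was thus about 3 times the highest control. Its mean went from 1004 ± 304 to 5260.4 ± 947 (mean ± SD of 3 samples, as in all values with ± that follow). The log2 fold change, given in brackets for later genes, was 2.39 with a standard error of 0.18 (adjusted p = 1.22e-09). SFN, 14-3-3 sigma, which keeps cyclin B complexes out of the nucleus, counted 1205, 1055 and 1250.5 in control and 7774, 7839 and 6427 in SARB, and had the smaller relative spread of this pair. SFN rose by 2.65 on the log2 scale (standard error 0.11, adjusted p = 1.17e-13). MDM2, the ubiquitin ligase that degrades p53, counted 1679, 1852 and 2062 in control and 8841, 7678 and 8187 in SARB (2.14, adjusted p = 1.35e-12). With a mean of 8235 ± 583, it was the most counted p53 target in the treated cells, on a scale that depends on the probe and so ranks counts, not transcript numbers.

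Further members followed the same direction. DDB2, the damage sensor of nucleotide excision repair, rose from 476 ± 86.4 to 1348 ± 126 (1.50). PML, the scaffold of nuclear bodies, rose from 97.2 ± 28.4 to 239 ± 11.0 (1.30), and GADD45A, a stress sensor that binds CDKN1A and PCNA, from 634 ± 19.2 to 1075 ± 187 (0.77). GADD45A had the smallest increase of the 15 called genes, yet its 3 SARB samples (1162, 860.2 and 1202) all lay above the controls (621, 656 and 625). EPHA2, an ephrin receptor, rose from 401 ± 150.1 to 1528 ± 238 (1.93), where control 1 at 567 was the highest control and shared the cartridge of SARB, and the fit with the block gave 1.43. Of the members that were not called, PCNA, the sliding clamp of replication, had a log2 fold change of 0.52 (adjusted p = 0.0188), IGFBP3 -0.78 and BID -0.36. PCNA was called under TMM (0.84), and IGFBP3 was above background in no control.

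**Figure D1:**
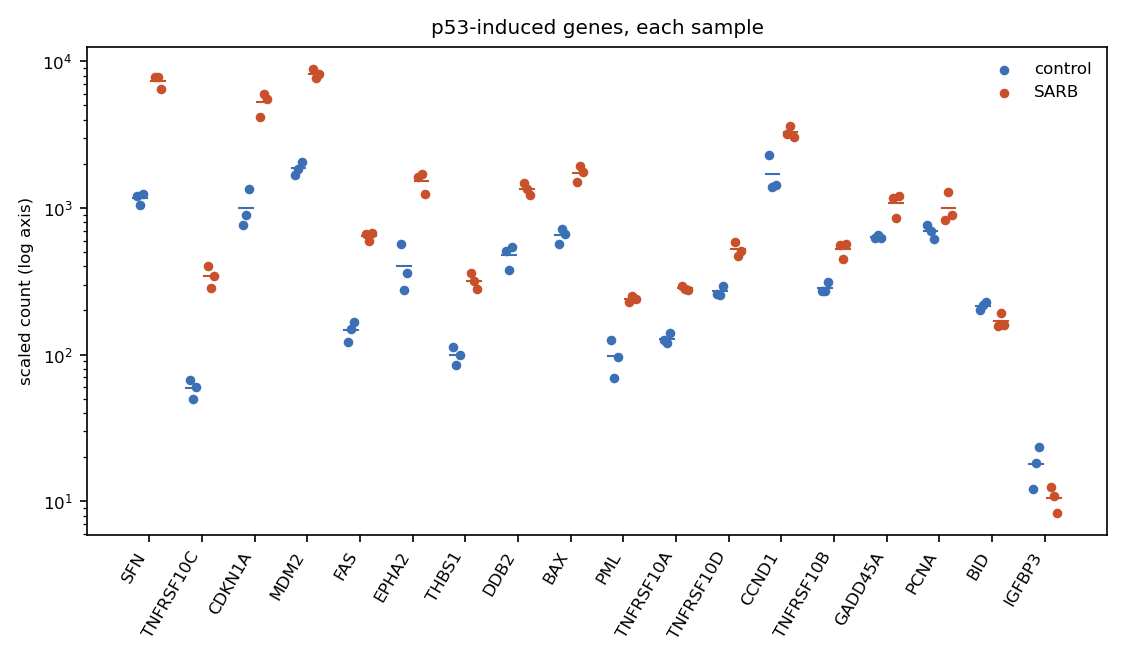
Scaled counts (y axis, log) of the 18 p53-induced genes (x axis, ordered by fold change) in each control sample (blue) and each SARB sample (orange), with bars at the group means. In 16 of the 18 genes all SARB samples lay above all control samples, against 13.2% of all 730 genes. The list was written with earlier results of these data known.

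FAS and the 4 TRAIL receptor genes of the panel rose. They were the 5 genes called higher among 16 genes for death receptors, their ligands and adaptors, and caspases with their regulators, and 1 was called lower (31.2% and 6.25%, list median -0.05). The list shares all 5 with the p53-induced genes. Of 6 caspases, edgeR called 0 higher, with 1 at an unadjusted p under 0.05 and 1 by DESeq2. FAS counted 121, 149.7 and 168 in control and 666, 593 and 678 in SARB, which is 2.14 on the log2 scale (standard error 0.13, adjusted p = 2.77e-11). TNFRSF10C, a TRAIL receptor without a death domain that acts as a decoy, rose most, from 67.5, 49.9 and 60.5 in the controls to 404, 284 and 344 in the SARB samples (2.55). The signaling receptors TNFRSF10A and TNFRSF10B had smaller increases of 1.15 and 0.89, and the second decoy, TNFRSF10D, 0.95. The groups did not overlap for any of these 5 genes, as for 62 of the 63 genes called higher. CASP8, the initiator caspase of these receptors, counted 341 ± 46.9 in control and 329 ± 52.7 in SARB (-0.06, adjusted p = 0.741). CASP12 was called lower (-1.87) but was above background in no sample of either group.

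In the BCL2 family, which sets the permeability of the outer mitochondrial membrane, 1 of 6 genes was called, a higher one (16.7%). The pro-apoptotic BAX counted 572, 723 and 664 in control and 1511, 1947 and 1762 in SARB (1.41, standard error 0.13, adjusted p = 3.64e-08). The anti-apoptotic BCL2L1 had a log2 fold change of 0.51 (adjusted p = 0.0023), below the fold change required, with SARB samples at 1882, 1853 and 1408 all above the controls at 1268, 1087 and 1264. BCL2 itself counted 25.3 ± 5.21 and 38.1 ± 6.34 (0.59, adjusted p = 0.157) and was above background in 1 control sample. Both anti-apoptotic genes were called higher under TMM, at 0.84 and 0.94.

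Histone H3 genes had the 2 largest falls of the panel. HIST1H3H counted 32812, 25976 and 18150.0 in the controls and 2769, 2293 and 1323 in the SARB samples. It was among the most counted genes of untreated cells and dropped in every SARB sample, with control 3 the lowest control and SARB 3 the lowest treated sample. On the log2 scale the difference was -3.59 (standard error 0.22, adjusted p = 2.77e-11), or 12.0-fold lower. HIST1H3B counted 19403, 20056 and 14772 in control and 3317, 3593 and 1473 in SARB, a log2 difference of -2.70 (standard error 0.23, adjusted p = 7.57e-09). These are the replication-dependent genes whose promoters share the CCAAT and TATAAA spacing printed above. Probes for H3 genes may also capture near-identical family members, so the gene of origin is uncertain.

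Of 6 H3 and H2AX genes on the panel, edgeR called 4 lower and 0 higher (0 by DESeq2 and 0 at an unadjusted p under 0.05), against 20% of all genes called lower. H2AFX, the histone variant phosphorylated at DNA breaks, counted 1060.2, 1055 and 1086 in control and 430.0, 720.0 and 304 in SARB (-1.16), with a tight control group and SARB samples that differed by more than 2-fold among themselves. H3F3A, a replication-independent H3.3 gene, fell less, from 5001 ± 238 to 3266 ± 250.5 (-0.61), and was not called under TMM (-0.27). H3F3C had a log2 fold change of -0.55, under the fold change required. HIST1H3G was near background, at 22.4 ± 6.90 and 20.8 ± 12.9 (-0.19), and its promoter also held 2 matches to CCAAT or ATTGG. NASP, the chaperone of H3 and H4, fell from 129.8 ± 11.5 to 54.9 ± 21.3 (-1.29, adjusted p = 0.000578).

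Cyclins of S phase and mitosis fell, and a pair of G1 cyclins rose. Of 10 cyclin genes, 2 were called higher and 3 lower (20% and 30%, median -0.37). CCNB1, the cyclin that drives mitotic entry, counted 4270.1, 4383 and 3769.8 in control and 1385, 1248 and 1178 in SARB. The groups were far apart, and CCNB1 fell by 1.71 on the log2 scale (standard error 0.10, adjusted p = 3.2e-11). CCNA2, the cyclin of S phase and G2, fell from 2507 ± 354 to 1291 ± 113 (-0.96, adjusted p = 3.03e-06). CCNB3 was also called lower (-1.27) from controls at 20.8, 31.7 and 38.7, none of them above background. The G1 cyclin CCND1 counted 2288, 1388 and 1435 in control and 3212, 3612 and 3072 in SARB (0.95, adjusted p = 4.66e-05). Control 1, from the cartridge of SARB, was the highest control for CCND1, and the block gave 0.53, not called. CCND3 rose from 69.4 ± 8.38 to 121 ± 16.5 (0.80), and CCNE1, the cyclin of the G1/S transition, counted 432 ± 89.7 and 604 ± 50.0 (0.49), below the fold change required and called under TMM and with the block.

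Among 15 genes for cyclin-dependent kinases, their phosphatases and inhibitors, 2 were called higher and 2 lower (13.3% each). Of the phosphatases that activate these kinases, CDC25C, which acts at mitotic entry, fell from 211 ± 6.11 to 94.4 ± 15.3 (-1.18, adjusted p = 8.79e-06), whereas CDC25A, which acts at the G1/S transition, rose from 294 ± 18.8 to 462 ± 81.0 (0.66, adjusted p = 0.00165). CDKN1B, the inhibitor p27, fell from 91.9 ± 28.3 to 58.1 ± 10.1 (-0.68), the opposite direction to CDKN1A. Under TMM its fall was smaller and not called (-0.34). The kinases CDK2, CDK4 and CDK6 were not called, with log2 fold changes of -0.58, -0.53 and 0.07.

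Of 24 replication and S phase genes, edgeR called 6 lower and 0 higher (4 higher by DESeq2, 3 at an unadjusted p under 0.05), so that 25% were lower, with a list median of -0.38 close to that of all genes. The helicase subunits MCM5, MCM7 and MCM4 fell by 1.12, 0.92 and 0.73 on the log2 scale, and FEN1, the flap endonuclease of lagging strand synthesis, by 0.95. MCM7 counted 4256, 4718 and 4205 in control and 2411, 2293 and 2279.5 in SARB, the tightest separation of these. Another subunit of the same helicase, MCM2, counted 348 ± 43.9 and 339 ± 87.6 (-0.02, adjusted p = 0.929). The licensing factor CDC6 had a log2 fold change of -0.30, and E2F1, the activator of S phase genes, 0.18. E2F5, of the repressive E2F class, fell by 0.80, and SKP2, the F-box protein that marks p27 for degradation, by 0.72. Under TMM, 4 genes of the list were called higher and 2 lower, against 16.4% and 9.32% of all genes.

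Of 11 genes for mitosis and the cohesin ring, edgeR called 6 lower (54.5%, against 20% of all genes). It called 0 higher (0 by DESeq2 and at an unadjusted p under 0.05), and the list median was -0.79. RAD21, the cohesin subunit cleaved at anaphase, counted 6337, 5716 and 5953 in control and 3498, 3346 and 3378 in SARB (-0.82, adjusted p = 2.57e-06). The ring subunit SMC1A fell from 451 ± 70.7 to 259 ± 54.9 (-0.79), and SMC3 had a log2 fold change of -0.47, just under the fold change required. STAG2, which binds the ring through RAD21, counted 1183, 671 and 603 in control and 898, 674 and 819.9 in SARB (-0.04), with control 1 well above the other controls. TTK, the spindle checkpoint kinase MPS1, fell from 1371 ± 97.1 to 700.3 ± 110.2 (-0.97), STMN1, a microtubule destabilizer, from 4656 ± 96.1 to 2598 ± 265 (-0.84), and the securin family gene PTTG2 by 0.89. SMC1B, also called lower (-1.50), was above background in no sample. Of the 6 genes, TTK alone was still called under TMM, and 5 were called with the cartridge block.

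**Figure D2:**
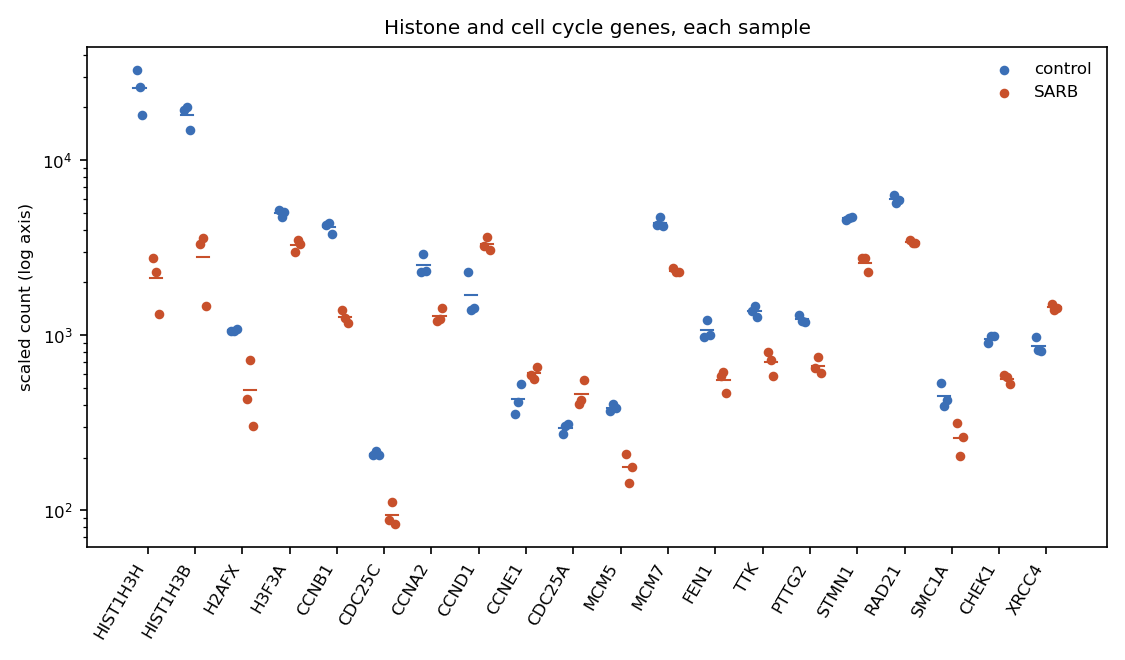
Scaled counts (y axis, log) of 20 histone, cyclin, replication, mitosis and damage response genes (x axis) in each control sample (blue) and each SARB sample (orange), with bars at the group means. HIST1H3H, HIST1H3B and CCNB1 have the widest gaps, and CCND1, CCNE1, CDC25A and XRCC4 lie higher in SARB.

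Of 36 DNA damage response genes, 2 were called higher and 9 lower (5.56% and 25%, median -0.34), shares near those of all genes. The checkpoint kinases ATR and CHEK1, which respond to stalled forks, fell by 0.62 and 0.76 on the log2 scale, CHEK1 from 955 ± 48.3 to 564 ± 35.7. ATM, the kinase of double-strand breaks, counted 43.2, 55.9 and 77.3 in control and 91.6, 78.2 and 63.5 in SARB (0.38, adjusted p = 0.191), with overlapping groups. The Fanconi genes FANCF and UBE2T fell by 1.12 and 0.79, and the base excision glycosylase NTHL1 by 0.89. XRCC4, the partner of DNA ligase IV in end joining, counted 970.3, 821 and 810.1 in control and 1501, 1397 and 1434 in SARB (0.74, adjusted p = 6.12e-05), and ERCC6, of transcription-coupled repair, rose from 109.8 ± 15.2 to 195 ± 40.3 (0.85). BRCA1 (-0.41), of homologous recombination, was not called. Under TMM 2 genes of this list remained lower.

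Laminin-332, the heterotrimer of basement membranes that anchors epithelial cells through integrin α6β4, had 2 of the 3 largest increases of the panel. LAMB3, its β3 chain, counted 77.8, 78.6 and 106 in control and 762, 613 and 527 in SARB, a log2 change of 2.86 (standard error 0.17, adjusted p = 2.77e-11), or 7.25-fold. LAMA3, its α3 chain, counted 43.2, 30.2 and 33.6 in control, where 1 of 3 samples was above background, and 218, 185 and 241 in SARB (2.60, adjusted p = 1.68e-10). The groups were far apart for both chains. LAMA5, the α chain of laminin-511, rose from 115 ± 29.7 to 321 ± 75.1 (1.47).

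Of 50 genes for laminins, integrins and matrix, 8 were called higher and 6 lower (16% and 12%, median -0.26), and all 8 higher genes were also called under TMM and with the cartridge block. ITGA6, the α6 chain of the laminin receptor, rose from 1017 ± 172 to 1892 ± 75.2 (0.90), and ITGA3, the α3 chain, from 1281 ± 331 to 2166 ± 219 (0.76). ITGB4, the β4 partner of α6, counted 685, 707 and 1321 in control and 1239.8, 995 and 1086 in SARB (0.29, adjusted p = 0.192), where control 3 exceeded every SARB sample. ITGB8, a receptor that activates latent TGF-β, fell from 327 ± 30.1 to 186 ± 23.4 (-0.82). THBS1, thrombospondin 1, counted 112, 84.7 and 99.2 in control and 363, 318 and 279.5 in SARB (1.70), and PLAU, the urokinase protease, 566, 449 and 889 in control and 2128, 1649 and 2015 in SARB (1.61, adjusted p = 1.84e-06). CDH1, E-cadherin, counted 311 ± 156 and 348 ± 15.4 (0.17, adjusted p = 0.519). The other 5 lower genes of the list, among them COL5A1 (-1.93), COL6A6 (-2.26) and RELN (-1.55), were above background in 1 sample or none in each group. FLNC, a filamin that crosslinks actin, and CAPN2, a calpain that cleaves adhesion proteins, are in no list and were also called higher (1.08 and 0.96), names chosen after their values were seen.

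In the RAS-ERK cascade HRAS and the adaptor SHC1 rose, and MAPK3 fell. Of 31 genes, 4 were called higher and 7 lower (12.9% and 22.6%), with a median of -0.41, that of all genes. HRAS rose from 221 ± 24.4 to 335 ± 44.0 (0.60), and NRAS counted 564 ± 90.0 and 543 ± 26.7 (-0.05, adjusted p = 0.766). MAPK3, which encodes ERK1, counted 235, 411 and 464 in control and 176, 221 and 125 in SARB (-1.12). Control 1 was the lowest control, and MAPK3 was not called with the cartridge block (-0.47). BRAF (-0.42) and MAP2K1 (0.30) were not called. SHC1, an adaptor of receptor tyrosine kinases, rose from 1501 ± 144 to 2338 ± 114 (0.64), the GTPase RAC2 from 165 ± 43.9 to 352 ± 10.6 (1.10) and the RAS inhibitor RASAL1 from 39.4 ± 18.9 to 75.1 ± 12.2 (0.95).

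The genes that ERK activity induces as feedback did not move together. DUSP5, a nuclear phosphatase of ERK and a p53 target in some cells, counted 1358, 1054 and 1189.9 in control and 5631, 4983 and 4813 in SARB, a log2 change of 2.10 (standard error 0.11, adjusted p = 2.64e-12). DUSP6, the cytoplasmic ERK phosphatase, fell from 2087 ± 564 to 1322 ± 85.0 (-0.66), and DUSP4 counted 476 ± 178 and 523 ± 70.4 (0.13, adjusted p = 0.533). ETV1, an ETS factor, fell from 424 ± 124 to 182 ± 33.7 (-1.21). SPRY1 (0.43) and SPRY2 (-0.46) were not called. Of the AP-1 genes, JUN rose from 43.2, 62.0 and 52.1 in the controls to 102, 171 and 122 in the SARB samples (1.30), FOSL1 rose from 458 ± 47.7 to 974 ± 187 (1.08), and FOS counted 133, 141 and 104 in control and 77.1, 105 and 71.4 in SARB (-0.61, adjusted p = 0.0237). The FOS groups overlapped, since SARB 2 at 105 lay above control 3 at 104, and FOS was not called under TMM (-0.26) or with the block (-0.70). NR4A1 counted 92.7 ± 16.3 and 121 ± 16.7 (0.37).

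Of 15 stress kinase genes, edgeR called 3 lower (20%, the share of all genes) and 0 higher (4 by DESeq2 and 3 at an unadjusted p under 0.05). Of these MAPK9, which encodes JNK2, was well counted (546 ± 68.8 to 319 ± 38.0, -0.78), while MAP2K6 and GADD45G were above background in no sample. GADD45B counted 162 ± 41.4 and 209 ± 14.5 (0.37, adjusted p = 0.0852). Of 10 heat shock and stress genes, 1 was called higher, GADD45A, and 3 lower (10% and 30%, median -0.20). HSPA1A, the inducible HSP70, counted 27.7, 21.2 and 30.3 in control and 28.0, 41.8 and 4.92 in SARB (-0.32), close to background in both groups, and HSPB1, HSP27, 777 ± 247 and 773 ± 258 (-0.02). HSP90B1, the chaperone GRP94 of the endoplasmic reticulum, fell by 0.62, and DDIT3, the stress factor CHOP, by 0.62, with overlapping groups for the latter. Neither was called under TMM, and the list's other lower gene was DDIT4, described with mTORC1 below.

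In the PI3K-AKT-mTOR core, 2 of 22 genes were called higher and 4 lower (9.09% and 18.2%), shares close to those of all genes. DDIT4, an inhibitor of mTORC1 induced by stress, counted 655, 493 and 398 in control and 217, 282 and 173 in SARB (-1.23, adjusted p = 4.56e-05). EIF4EBP1, the translational repressor that mTORC1 inactivates, fell from 1238 ± 163 to 531 ± 52.4 (-1.22), and both genes were called in every alternative. The kinases AKT1 (-0.16), PIK3CA (-0.28) and MTOR (-0.26) were not called. STK11, the kinase LKB1 that activates AMPK, rose from 262 ± 64.9 to 446 ± 68.4 (0.76), and PIK3R2, a regulatory subunit, from 145 ± 50.1 to 218 ± 10.1 (0.60). Neither of these was called with the cartridge block (0.39 and 0.16).

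Among 41 growth factors, 13 of which were above background in no sample, 2 were called higher and 6 lower (4.88% and 14.6%, median -0.83). KITLG, the ligand of the receptor KIT, counted 11297, 12469 and 13772 in control and 3840.0, 3415 and 4571 in SARB. It was the most counted growth factor of the list in control and fell in every SARB sample, by 1.67 on the log2 scale (standard error 0.11, adjusted p = 1.67e-10). VEGFA, the angiogenic factor, fell from 856 ± 9.52 to 553 ± 71.0 (-0.63), and PDGFA rose from 66.4 ± 9.47 to 116 ± 0.966 (0.81). FGF9 (-1.25) and FGF11 (-0.89) were called lower at means under 60 in control, and FGF18 higher (1.04) at 12.4 ± 2.53 in control. In neither group was FGF18 above background in all 3 samples. Of 24 receptor and ephrin genes 3 were called higher and 3 lower (12.5% each). NGFR, the low-affinity neurotrophin receptor, counted 69.2, 65.0 and 67.2 in control and 195, 216 and 169.8 in SARB (1.51, adjusted p = 7.35e-07), while EGFR (0.11) and MET (-0.36) were not called.

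In the TGF-β and BMP pathway, the BMP targets ID1 and ID2, inhibitors of differentiation factors, fell. ID1 counted 3061, 2679 and 3042 in control and 1231, 1317 and 832 in SARB (-1.38, adjusted p = 1.11e-07), and ID2 1237, 1084 and 1059 in control and 572, 646 and 478 in SARB (adjusted p = 3.03e-06). The ligand TGFB1 rose from 249.8 ± 29.1 to 427 ± 61.1 (0.77), BMP7 rose from 93.2 ± 13.2 to 157 ± 36.1 (0.73), and BMP4 fell from 1027 ± 166 to 535 ± 76.5 (-0.94). Of 35 genes of the pathway, 2 were called higher and 6 lower (5.71% and 17.1%), both under the shares of all genes, with a median of -0.60. SMAD4, the shared signal transducer, counted 574 ± 18.4 and 696 ± 127 (0.28, adjusted p = 0.101).

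The Notch receptor NOTCH1 counted 129.7, 77.1 and 104 in control and 286, 287 and 174 in SARB (1.25, adjusted p = 3.69e-05), while HES1, a transcriptional target of Notch, fell from 142 ± 29.9 to 81.0 ± 39.8 (-0.90, adjusted p = 0.0127). HES1 was not called under TMM (-0.57) or with the block (-0.71), and NOTCH1 was called in every alternative. Of 18 Notch genes, 2 were called higher, the other being the acetyltransferase KAT2B (0.96), and 3 lower (11.1% and 16.7%).

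Cytokine genes were mostly near background, 20 of 59 being above it in no sample, and 5 were called higher and 6 lower (8.47% and 10.2%). STAT3, the transcription factor of IL-6 family cytokines, counted 449.7, 337 and 385 in control and 851, 736 and 633 in SARB (0.92, adjusted p = 1.92e-05). The STAT feedback inhibitors SOCS1 and SOCS3 rose from 44.1 ± 18.3 to 97.8 ± 21.5 (1.17) and from 81.9 ± 10.7 to 128 ± 19.6 (0.63). IL8, the neutrophil chemokine, counted 8.65, 24.2 and 40.3 in control, where no sample was above background, and 90.6, 67.4 and 40.4 in SARB (1.39, adjusted p = 0.00396). SARB 3 lay barely above control 3, so the groups were all but overlapping. IL6 (-0.80) and IL1B (-0.72) were not called. CLCF1, an IL-6 family cytokine in no list, also rose (1.36), a name chosen after its values were seen.

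Of 19 NF-κB genes, CYLD and TNFAIP3, deubiquitinases that restrain the pathway, were called higher and 2 genes lower (10.5% each). CYLD counted 125, 187 and 166 in control and 286, 289 and 334 in SARB (0.93, adjusted p = 4.92e-05), and TNFAIP3 29.9 ± 11.9 and 62.7 ± 6.42 (1.08, adjusted p = 0.00918). The subunits NFKB1 (-0.34) and RELA (0.45) and the inhibitor NFKBIA (-0.15) were not called. TLR2, called lower, was above background in no SARB sample.

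For the WNT pathway, the transcriptional target AXIN2, which feeds back on β-catenin, counted 98.6, 86.2 and 124 in control and 38.6, 52.6 and 45.3 in SARB (-1.19, adjusted p = 0.000271). RNF43, the ubiquitin ligase that removes frizzled receptors and is in no list, fell from 112 ± 43.7 to 40.4 ± 8.17 (-1.50, adjusted p = 0.000204). DKK2 and DKK4, secreted antagonists, were called lower (-1.90 and -1.92) at 38.0 ± 14.9 and 47.2 ± 18.1 in control, with 1 SARB sample of each above background, and neither was called with the block (-1.15 and -1.15). WNT7B, a ligand, rose from 24.2, 49.9 and 26.9 in the controls to 93.5, 131 and 107 in the SARB samples (1.68, adjusted p = 2.55e-05). APC (-0.31) and MYC (-0.50) were not called. Of 27 genes for WNT signal transduction and targets 3 were called higher and 7 lower (11.1% and 25.9%), and of 19 ligands and receptors 1 higher and 4 lower (5.26% and 21.1%). Among 21 calcineurin, protein kinase A and PP2A genes, 1 was called higher and 9 lower (4.76% and 42.9%, median -0.51). Of the 9 lower genes, 6 were above background in all samples of at least 1 group. Under TMM 3 of the 9 remained lower, with the cartridge block 4, and in both 2. PRKACB, a catalytic subunit of protein kinase A, counted 886, 884 and 985 in control and 310.4, 212 and 406 in SARB (-1.55), and PPP2CB, a catalytic subunit of PP2A, rose from 875 ± 187 to 1428 ± 128 (0.71). CACNA2D2, a calcium channel subunit in no list, fell from 154 ± 30.9 to 63.6 ± 12.5 (-1.29).

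Of 39 chromatin genes, edgeR called 9 lower (23.1%, near the share of all genes, with a median of -0.28) and 0 higher, with 2 higher under TMM, by DESeq2 and at an unadjusted p under 0.05. IDH1 and IDH2, isocitrate dehydrogenases that feed demethylases with 2-oxoglutarate, both fell. IDH1 counted 242, 358 and 508 in control and 143, 112 and 126 in SARB (-1.54), and IDH2 297, 257 and 334 in control and 155, 146 and 112 in SARB (-1.12), each in every alternative. PHF6 and HDAC4 were also lower (-1.16 and -1.21), but control 1 was the lowest control of both, and the block reduced them to -0.36 and -0.47, not called. The writers EZH2 (-0.31), EP300 (-0.09) and DNMT1 (-0.02) were not called. NPM1, the nucleolar chaperone nucleophosmin, counted 161, 144 and 126 in control and 54.0, 99.8 and 43.8 in SARB (-1.19, adjusted p = 0.00132). Among 14 genes of colon stemness and differentiation, KLF4 fell from 252 ± 63.6 to 155 ± 22.5 (-0.69), a call lost under TMM and with the block, whereas PROM1, which encodes the surface marker CD133, counted 157, 168 and 197 in control and 134, 149.7 and 127 in SARB (-0.35, adjusted p = 0.101) and SOX9 1068 ± 272 and 757 ± 73.0 (-0.50), neither of them called.

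At the matched dose of 35 µM and the same 24 h, 7 genes (0.959%) were called higher in SARB than in Combi and 82 (11.2%) lower, relative to the housekeeping genes. This was the 1 pair of treatments with matched dose, and its p-values were adjusted over the 730 genes. No cartridge held both treatments, so cartridge and treatment cannot be told apart here. Combi 2 and 3 were alone on their cartridge, so a fit with cartridge as a block takes nothing about the difference from them. That fit rests on Combi 1, linked to SARB through the controls, of which control 1 alone shared the cartridge of SARB. It cannot separate cartridge from treatment, so nothing is drawn from its calls. Without the block, TMM gave 39 genes higher and 54 lower and DESeq2 48 higher and 40 lower, the median log2 difference of all genes being -0.32 relative to the housekeeping genes and -0.06 under TMM. The values that follow are those without the block. Joining the drugs in one molecule instead of mixing them is the change in structure. FOS differed most, at 77.1, 105 and 71.4 in the SARB samples and 638, 463 and 752 in the Combi samples, a log2 difference of SARB minus Combi of -2.90 (standard error 0.19, adjusted p = 5.16e-10). Its mean was 821 ± 72.2 in TQ at 40 µM and 97.6 ± 15.2 in 5-FU at 15 µM, doses that differ from 35 µM, so these values stand beside the others without a comparison. ID1 lay at 1127 ± 259 in SARB against 2659.7 ± 283 in Combi (-1.25), the laminin receptor chain ITGB4 at 1107 ± 124 against 2475 ± 239.7 (-1.16) and NGFR at 193 ± 23.0 against 389 ± 62.6 (-1.03). NGFR was thus raised over control in SARB and lower there than in Combi. NOTCH3, FGFR4 and NFKBIA, names chosen after their values were seen, were also lower in SARB (-1.32, -1.34 and -0.93). Of the other genes with the largest differences by the naming rule, GADD45G, PTPN5, COL6A6, COL5A1 and CACNG6 were above background in no SARB sample.

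The 7 genes higher in SARB than in Combi were PIK3CG, PIK3R1, XRCC4, STAG2, DNMT1, E2F1 and NF2, the last outside the naming rule. DNMT1, the maintenance DNA methyltransferase, counted 1515, 1557 and 1670.3 in SARB and 1108, 907 and 918 in Combi (0.70, adjusted p = 0.000302), and XRCC4 1501, 1397 and 1434 in SARB and 959, 693 and 716 in Combi (0.88, adjusted p = 5.94e-05). The SARB samples lay above the Combi samples for all 7. STAG2 lay at 797 ± 113 against 458 ± 24.0 (0.80), E2F1 at 223 ± 31.1 against 146 ± 5.47 (0.62), and PIK3R1 at 150.0 ± 24.9 against 83.2 ± 27.7 (0.91). PIK3CG at 6.71 ± 3.33 in Combi was near background. NF2, the tumor suppressor merlin, lay at 1131 ± 122 against 742 ± 48.2 (0.61).

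Of the 24 genes that the naming rule took for the largest changes from control, 20 were not called between SARB and Combi, and 4 were lower in SARB, namely ID1, IDH1 (-1.15), RNF43 (-1.24) and CACNA2D2 (-0.67). A p above the threshold does not show that the compounds act alike. The log2 difference of SARB minus Combi was 0.06 for SFN (95% interval -0.17 to 0.28), -0.29 for CDKN1A (-0.67 to 0.09) and -0.15 for MDM2 (-0.37 to 0.07). For HIST1H3H it was -0.08 (-0.52 to 0.36), for CCNB1 -0.07 (-0.30 to 0.15), for LAMB3 0.07 (-0.25 to 0.39) and for KITLG -0.02 (-0.27 to 0.22). The interval of HIST1H3H, the widest, leaves room for a level in SARB lower by 0.52 or higher by 0.36 on the log2 scale. DUSP5 was higher in SARB by 0.47 (0.25 to 0.70, adjusted p = 0.00315), and GADD45A lower by 0.58 (adjusted p = 0.00323), both under the fold change of 1.5.

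**Figure D3:**
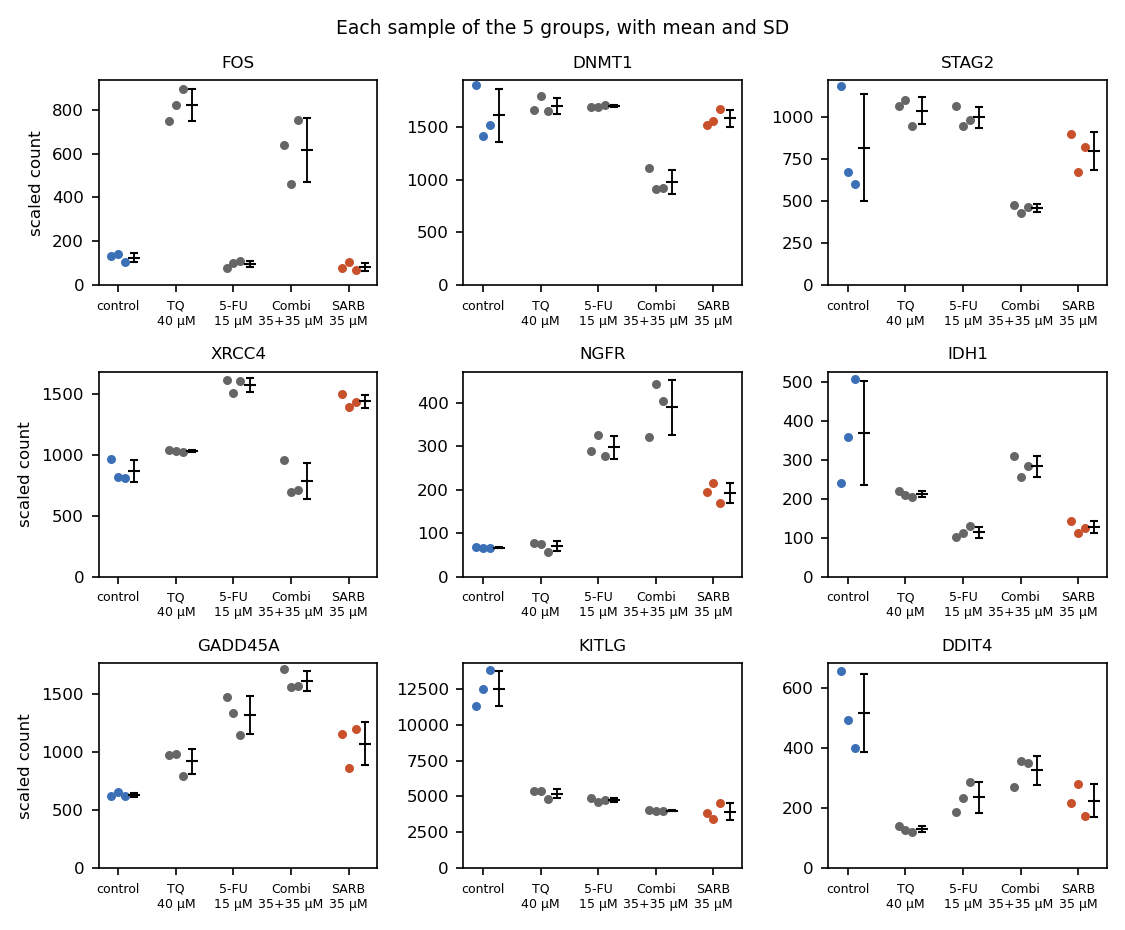
Scaled counts (y axis, linear from 0) of 9 genes in each sample of control, TQ, 5-FU, Combi and SARB (x axis, with doses), with the mean and SD of the 3 samples beside the points. FOS, DNMT1, STAG2, XRCC4, NGFR and IDH1 were called different between SARB and Combi, whereas GADD45A, KITLG and DDIT4 were not; TQ and 5-FU were given at other doses.

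Beside SARB, values in the single drugs are given for orientation, all 4 comparisons sharing the same controls. HIST1H3H averaged 22021 ± 1234 in TQ and 2512 ± 139.7 in 5-FU, with 25646 ± 7337 in control and 2129 ± 737 in SARB. CDKN1A averaged 519.7 ± 20.9 in TQ and 4542 ± 951 in 5-FU, and LAMB3 205 ± 33.6 and 655 ± 39.2. HSPA1A averaged 333 ± 81.8 in TQ and 38.9 ± 10.4 in 5-FU beside 24.9 ± 18.6 in SARB. KITLG averaged 5199 ± 318 in TQ and 4752 ± 156 in 5-FU, so that all treatments stood below the controls for this gene. Of the 18 p53-induced genes, TQ had 5 called higher and 2 lower, against 3.42% and 21.6% of all genes. 5-FU and Combi had 15 each called higher, against 10.1% and 13.6% of all genes.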

How the data were processed

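RNA from HCT116 cells was counted on a NanoString panel of 730 endogenous and 40 housekeeping genes in 15 samples, 3 per group. The deposited raw counts are barcode counts per probe, with no normalization by the authors. The deposited normalized signal values had been made by the authors with the negative probes subtracted and housekeeping scaling, and served as an alternative. A deposited table of fold changes and p-values was not used. Raw counts were tested with edgeR 4.0.16 (R 4.3.3), with library sizes from the housekeeping genes, in one fit over all 15 samples in 5 groups without covariates. DESeq2 1.42.0 and limma 3.58.1 (pseudocount 1) were alternatives, with TMM, cartridge and replicate blocks, filters and floors at 20 counts, background subtraction, SARB and control samples alone, and each sample left out in turn. The edgeR, DESeq2 and limma tests were run on simulated counts with equal numbers of rises and falls and no cartridge effect or background shift. That check does not bear on how scaling and cartridge moved the calls. Standard errors were derived from the F statistics.

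The genes, gene lists and tests were chosen with earlier results of these data known. Genes were named by a rule that took the 12 called genes in each direction with the largest changes among those whose groups did not overlap and whose higher group averaged at least 50 raw counts, the key members of each list, up to 4 called members of a list in each direction, and up to 6 genes in each direction for SARB versus Combi. Names outside this rule, such as DDB2, PML, PCNA, BID, IGFBP3, MCM4, SKP2, LAMA5, ITGA3, CDH1, BMP4, H3F3C and HIST1H3G, were added after their values were seen. The number of samples and the counts near background limit the precision. Promoters were taken from a RefSeq table of 250 bases before to 50 bases after the start. Some panel genes are not reported here by name, although they count in every total.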

Additional observations from a re-analysis of the deposited data

How the results depend on the processing

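For SARB versus control, TMM called 120 genes higher and 68 lower, DESeq2 with its own size factors 116 and 60, and the cartridge block 50 and 56, against 63 and 146. Leaving out one sample gave 54 to 73 genes higher and 91 to 243 lower, with 91 without control 3, 92 without SARB 3 and 243 without SARB 2. For SARB versus Combi, against 7 higher and 82 lower, TMM called 39 and 54 and DESeq2 48 and 40. The cartridge block called 0 and 1, but no cartridge held both treatments, so that fit cannot separate cartridge from treatment. Leaving out one sample gave 6 to 12 higher and 40 to 148 lower, with 12 without Combi 1, 49 without Combi 3, 40 without SARB 3 and 148 without SARB 2. The cause of these shifts was not tested. All other alternatives stayed within 1.5 times of these counts. Sample numbers were not used to pair the samples. Same-numbered deviations correlated at 0.05, 0.23 and -0.13 over 495 genes. SARB 1 and SARB 2 correlated best with the control of the same number, and SARB 3 with control 1 (0.22). With 3 samples in a group, these values cannot settle whether the samples were paired. The replicate block called 62 genes higher and 126 lower. Of the called genes named here, the log2 fold change of COL5A1 turned to 0.20 with the cartridge block and that of FGF18 to -0.32 with counts under 20 set to 20. Of 120 called genes named here, 43 calls ended with the cartridge block in the same direction and 28 under TMM. Of 55 named genes that were not called, 29 changed sign under some alternative, 19 of them under TMM. Genes near background carry the largest uncertainty, and 122 of 730 genes were above it in none of the 6 samples.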
